A study of Mus musculus with 8 samples.

Results

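The fatty acid uptake and lipoprotein lipase system was followed through 10 genes, Lpl, Gpihbp1, Angptl4, Vldlr, Lrp1, Cd36, Slc27a1, Slc27a4, Fabp4 and Acsl1, which were taken by gene name from the 30387 genes of the deposited table. All 10 were found, and all 10 were among the 18800 genes whose mean over the libraries reached 5, the lowest mean that was tested. RNA-seq was carried out on adipocytes isolated from epididymal white fat of Ad-Yap/Taz-KO mice (KO) and of wild-type animals (WT) after 4 weeks on a standard diet (SD, normal chow in the labels) or a high-fat diet (HFD). Each of the 4 groups held 2 libraries. The KO mice carry floxed alleles of Yap1 and of Wwtr1, which encodes TAZ, together with a Cre recombinase under the adiponectin (Adipoq) promoter. Deletion is therefore constitutive and directed to adipocytes, and any other cell in the preparation keeps both genes. The diets began at 5 weeks of age in the series description, and a slightly later start stands in the methods. The labels number the libraries of a group as repeats, and the study describes its replicates as separate mice, so every p-value measures the spread between these animals and their libraries.

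Fat enters an adipocyte in steps that these genes cover. Lipoprotein lipase (LPL) is made by the adipocyte, is carried across the capillary wall by the endothelial protein GPIHBP1, and releases fatty acids from the triglycerides of circulating lipoproteins, whereas ANGPTL4 inactivates it. VLDLR and LRP1 are receptors of the LDL receptor family that bind triglyceride-rich particles and remnants, CD36 and the fatty acid transport proteins SLC27A1 and SLC27A4 promote uptake across the membrane, FABP4 binds fatty acids in the cytosol, and ACSL1 activates them to acyl-CoA. In white fat most of these genes are known targets of PPARγ. YAP and TAZ are transcriptional co-activators of the Hippo pathway that act through TEAD factors.

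The library labels and the make-up of the preparations were checked first. Wwtr1 was listed at 5594 and 4743 normalized counts in WT on SD, 2441 and 1957 in KO on SD, 7121 and 6807 in WT on HFD and 2060 and 2707 in KO on HFD. Yap1 was listed at 2776 and 2717, 1669 and 1699, 2468 and 2333, and 1549 and 2068 in the same order. Wwtr1 and Yap1 were lower in every KO library than in any WT library. KO against WT gave log2 fold changes of -1.24 and -1.56 for Wwtr1 on SD and HFD (adjusted p = 0.00097 and 3.1e-05), and -0.71 and -0.42 for Yap1 (adjusted p = 0.024 and 0.059, the second not called); the counts cover whole genes, deleted and undeleted exons together. The sum of 12 adipocyte markers was 321197 to 356037 in WT on SD, 271943 to 356350 in KO on SD, 472716 to 472902 in WT on HFD and 93742 to 183977 in KO on HFD. The sum of 11 macrophage markers was 5399 to 5459, 17874 to 31771, 2521 to 2559 and 33082 to 35752 in that order. Of the 11, 10 were called higher in KO on SD and 11 on HFD, beside 3.21% and 17.1% of all genes. No listed adipocyte, macrophage or endothelial marker was at 0 in both libraries of any group. Between 1000 and 5000 normalized counts the 2 libraries of KO on HFD differed most, and the 2 of WT on HFD were the most alike. The squared difference was 5.64 times the counting expectation in WT on HFD, against 17.1 to 55.7 in the other groups. Between 5 and 20 normalized counts it was 5.58 in KO on HFD, 5.69 in WT on HFD, 5.86 in WT on SD and 8.34 in KO on SD. The second library of KO on HFD held the lowest adipocyte marker sum of the series. In such bulk samples, fewer adipocytes and less RNA per adipocyte cannot be told apart.

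Per length, the system was led by Fabp4 and Lpl. Divided by the length of the principal transcript, Fabp4 lay between 40783 and 78366 normalized counts per kb over the 8 libraries, and Lpl between 13374 and 38418. Cd36 followed at 11249 to 18231 and Acsl1 at 4873 to 10302 per kb. Fabp4, Lpl, Cd36 and Acsl1 held this order by group means in all 4 groups, and neighbours in it overlapped only for Lpl and Cd36 in KO on HFD. Angptl4, Slc27a1, Lrp1 and Gpihbp1 made up a middle range, from 853 to 5414 per kb, whose order changed between groups. In WT on SD the libraries of Gpihbp1 and Slc27a1 overlapped, as did those of Slc27a1 and Lrp1, and Angptl4 overlapped Acsl1. Vldlr (111 to 561 per kb) and Slc27a4 (77.9 to 186 per kb) stood lowest, and their libraries overlapped in WT on SD alone. Dividing by the union of all annotated exons instead, which includes retained introns, placed Cd36 first in 3 of the 4 groups, so the order of the first 3 genes depends on the transcript model. Together the 10 genes held 1.39% to 1.97% of all normalized counts of a library.

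**Figure D1:**
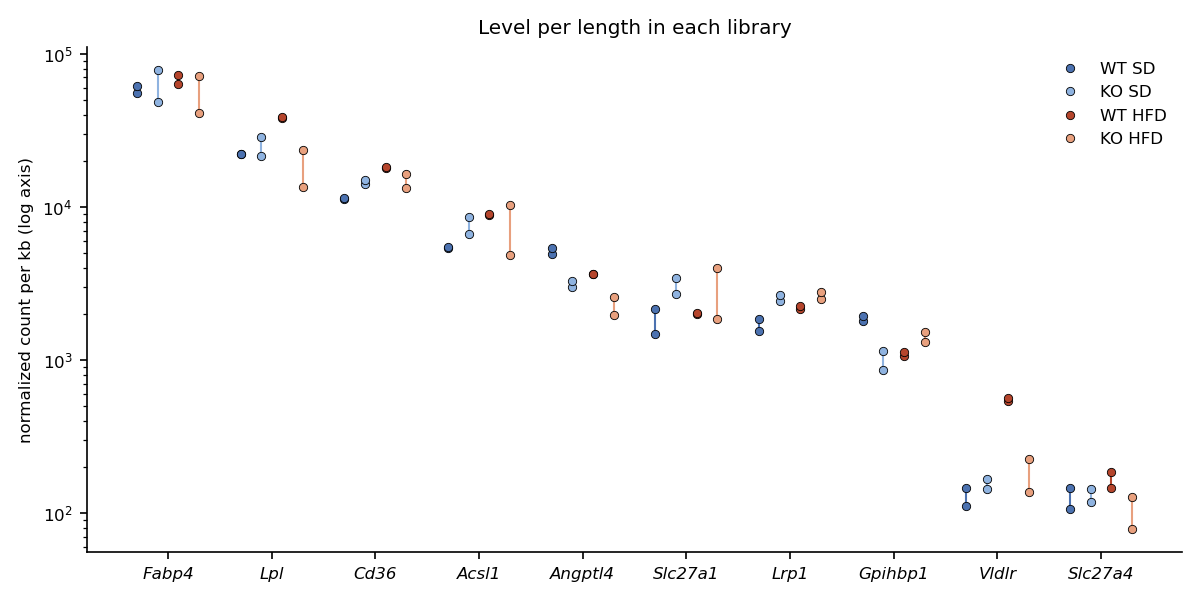
Normalized count per kb of principal transcript (log axis) for each of the 10 genes; points are single libraries, colours are the 4 groups of 2 libraries, and vertical lines join the libraries of a group. Fabp4 lies between 40783 and 78366 per kb at the top and Slc27a4 between 77.9 and 186 at the bottom, and Vldlr shows WT on HFD apart from the other groups.

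KO was next compared with WT on HFD, where the preparations also differed in their adipocyte and macrophage markers. Vldlr, Lpl, Slc27a4 and Angptl4 were lower in KO, between 1.63-fold and 3.15-fold, and none of the 10 genes was called higher. A gene was called when its adjusted p was at most 0.05 and its log2 fold change at least 0.59 in size. By this rule 4 of the 10 were called, all lower, whereas 32.2% of all genes tested were called in this comparison, 15.1% lower and 17.1% higher. The median log2 fold change of the 10 genes was -0.33, beside 0.09 over all genes tested. The share called among the 10 was thus near that of all genes. At equal library totals Lpl and Vldlr were still lower, Angptl4 and Slc27a4 were not called, and Gpihbp1, Slc27a1 and Lrp1 were higher. That scaling moved the median of all genes from 0.09 to 0.47. Under quantile normalization Vldlr alone of the 4 was still called lower, and Slc27a1 and Lrp1 were called higher.

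On SD, KO and WT differed in fewer genes. Gpihbp1 was 1.88-fold and Angptl4 1.65-fold lower in KO, and 8 genes were not called. The background in this comparison was 4.71% of all genes, 1.50% lower and 3.21% higher. The median over the 10 genes was 0.22 on the log2 scale, beside -0.01 over all genes tested.

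The change of diet in WT was led by Vldlr, 4.32-fold higher on HFD. Cd36 was 1.59-fold higher and Gpihbp1 1.70-fold lower, so 3 of the 10 genes were called where 18.0% of all genes were, 8.74% higher and 9.22% lower. Scaled to the same total, 11.6% of the called genes were higher in place of 48.7%, Cd36 was no longer called, Vldlr and Gpihbp1 kept their calls, and Angptl4 was called lower on HFD (-0.91, adjusted p = 0.0015). The background rests on single libraries too: without the first WT library on SD 628 genes were called for this comparison in place of 3377, and without the second WT library on HFD 787. In KO the same change of diet gave 0 called genes of 10 by limma, beside 1.07% of all genes (0.383% higher and 0.691% lower), and 2 of the 10 (Angptl4 and Gpihbp1) had an unadjusted p under 0.05. The 4 comparisons share groups with one another and are not independent.

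The interaction of genotype and diet tests whether the effect of the knockout on HFD differs from that on SD. It was called for Vldlr and Lpl, whose knockout effect was more negative on HFD, and for Gpihbp1, whose effect was more positive. These were 3 of the 10 genes, beside 17.4% of all genes (8.69% positive and 8.73% negative). Without single libraries between 530 and 4249 of all genes were called for the interaction in place of 3274, and between 14 and 961 for the diet in KO in place of 202.

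**Figure D2:**
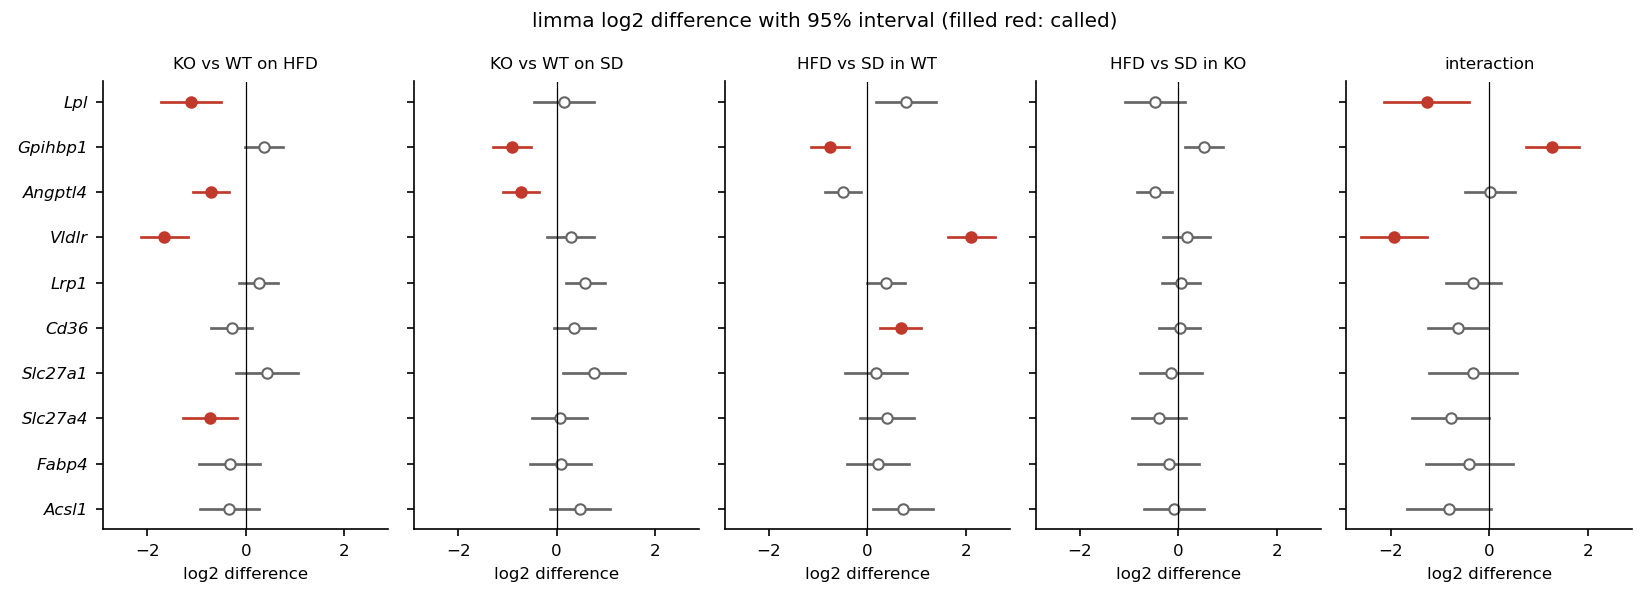
limma log2 difference of each gene in the 4 comparisons and the interaction (horizontal axis, log2 scale of the normalized count plus 1); points are estimates, lines are 95% intervals, and filled red marks the called genes (adjusted p no higher than 0.05, log2 difference no smaller than 0.59 in size). Vldlr lies at -1.65 for KO against WT on HFD and at 2.11 for HFD against SD in WT, and no gene is filled for HFD against SD in KO.

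Lpl, the secreted lipase itself (chr8:68880491-68907448, plus strand, GRCm38), was abundant in every library. It was listed at 91120 and 91503 normalized counts in WT on SD, 88692 and 116780 in KO on SD, 158090 and 157157 in WT on HFD and 96940 and 55035 in KO on HFD. WT on HFD stood above all 6 other libraries, and of the KO libraries on HFD the first lay within the range of the SD groups and the second below it. KO against WT on HFD gave a log2 fold change of -1.11 ± 0.28 (SE; adjusted p = 0.0091). On SD the difference was 0.16 ± 0.28 (adjusted p = 0.84), and the interaction was -1.27 ± 0.40 (adjusted p = 0.046). The interaction was no longer called at equal totals (-0.84, adjusted p = 0.11) or under quantile normalization (-0.55, adjusted p = 0.22). HFD against SD in WT gave 0.79 ± 0.28, which was not called (adjusted p = 0.067). It was called in 3 of 11 alternatives, quantile normalization among them (0.67, adjusted p = 0.047), and without either KO library on HFD, and it fell to 0.37 (adjusted p = 0.29) at equal totals. The KO against WT difference on HFD rested on the second KO library: without it the value was -0.70 and was no longer called, whereas without the first it was -1.52. It was also not called without either WT library on HFD, with those averaged (adjusted p = 0.075), or under quantile normalization, where the value was -0.55 (adjusted p = 0.054).

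Gpihbp1 encodes the endothelial anchor that shuttles LPL into the capillary lumen (chr15:75596628-75599481, plus strand), and it is made by capillary endothelial cells rather than by adipocytes. The gene was listed at 1480 and 1584 normalized counts in WT on SD, 942 and 704 in KO on SD, 870 and 930 in WT on HFD and 1081 and 1257 in KO on HFD. WT on SD was highest, and each of the other 3 groups was below it without overlap. KO against WT on SD gave a log2 fold change of -0.91 ± 0.18 (SE; adjusted p = 0.0093), and HFD against SD in WT gave -0.77 ± 0.18 (adjusted p = 0.012). On HFD the knockout effect was in the other direction, 0.37 ± 0.18, and was not called (adjusted p = 0.12). The interaction was 1.28 ± 0.25 (adjusted p = 0.0079) and was called without any single library. The SD difference was not called without either WT library on SD or without the second KO library. The diet difference in WT was no longer called without any 1 of the 4 WT libraries or with the WT libraries on HFD averaged. Its value stayed between -0.82 and -0.72 in these fits.

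The endothelial markers moved beside Gpihbp1. The sum of 12 endothelial markers was 44142 to 52258 in WT on SD, 23490 to 41176 in KO on SD, 29144 to 29801 in WT on HFD and 35917 to 55586 in KO on HFD, so that WT on SD was highest and KO on HFD second by group mean, as for Gpihbp1. Of the 12 markers, 6 were lower on HFD in WT, none was called between KO and WT on SD, and 9 had a positive interaction, beside 9.22% of all genes lower for the diet in WT and 8.69% with a positive interaction. On HFD, where Gpihbp1 was not called, 5 of the 12 (Pecam1, Vwf, Flt1, Cldn5 and Egfl7) were higher in KO, beside 17.1% of all genes. Set against Pecam1 (CD31) in the same library, Gpihbp1 was 0.191 and 0.252 in WT on SD, 0.150 and 0.196 in KO on SD, 0.229 and 0.227 in WT on HFD and 0.192 and 0.141 in KO on HFD. The ratio of WT on HFD lay within the range of WT on SD, and the KO libraries reached lower on either diet. Other markers of the list placed WT on HFD differently. Egfl7 was listed at 1458 and 1259 in WT on SD and 491 and 525 in WT on HFD. Per count of Egfl7, Gpihbp1 was higher in WT on HFD than in WT on SD. Ptprb was listed at 10181 and 9350 in WT on SD and 7865 and 8110 in WT on HFD. Per count of Ptprb, Gpihbp1 was lower in WT on HFD. The part of endothelial cells in the changes of Gpihbp1 was not tested.

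Angptl4 encodes the secreted inhibitor that unfolds LPL, and it is induced by fasting and by PPARs (chr17:33773750-33781575, minus strand). It was listed at 17910 and 16259 normalized counts in WT on SD, 9969 and 10768 in KO on SD, 12046 and 12104 in WT on HFD and 8487 and 6480 in KO on HFD. The KO libraries were below the WT libraries on either diet, without overlap. The log2 fold change of KO against WT was -0.72 ± 0.17 (SE; adjusted p = 0.025) on SD and -0.70 ± 0.17 (adjusted p = 0.0060) on HFD. The interaction was 0.02 with a 95% interval of -0.49 to 0.53, so no difference between the diets was detected within that interval. On HFD the call was lost at equal library totals, where the value was -0.32 (adjusted p = 0.11), and under quantile normalization (-0.20, adjusted p = 0.34), as well as with the WT libraries on HFD averaged and without either of them or the second KO library on HFD. On SD it held at equal totals with -0.76 (adjusted p = 0.0093). The SD call was lost in 4 of 11 alternatives and without 6 of the 8 single libraries. HFD against SD gave -0.50 in WT (adjusted p = 0.052) and -0.48 in KO (adjusted p = 0.18), neither called. In WT this difference was called in 3 of 11 alternatives, with -0.91 (adjusted p = 0.0015) at equal totals and -0.81 (adjusted p = 0.0052) under quantile normalization.

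The balance of lipase and inhibitor can be read within a library, where no scaling enters. The count of Angptl4 per count of Lpl was 0.197 and 0.178 in WT on SD, 0.112 and 0.0922 in KO on SD, 0.0762 and 0.0770 in WT on HFD and 0.0876 and 0.118 in KO on HFD. On SD the KO libraries lay below the WT libraries, whereas on HFD they lay above them. The ratio was highest in WT on SD, in both libraries, and lowest in WT on HFD. These pairs of genes were chosen with their values known and were not tested.

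**Figure D3:**
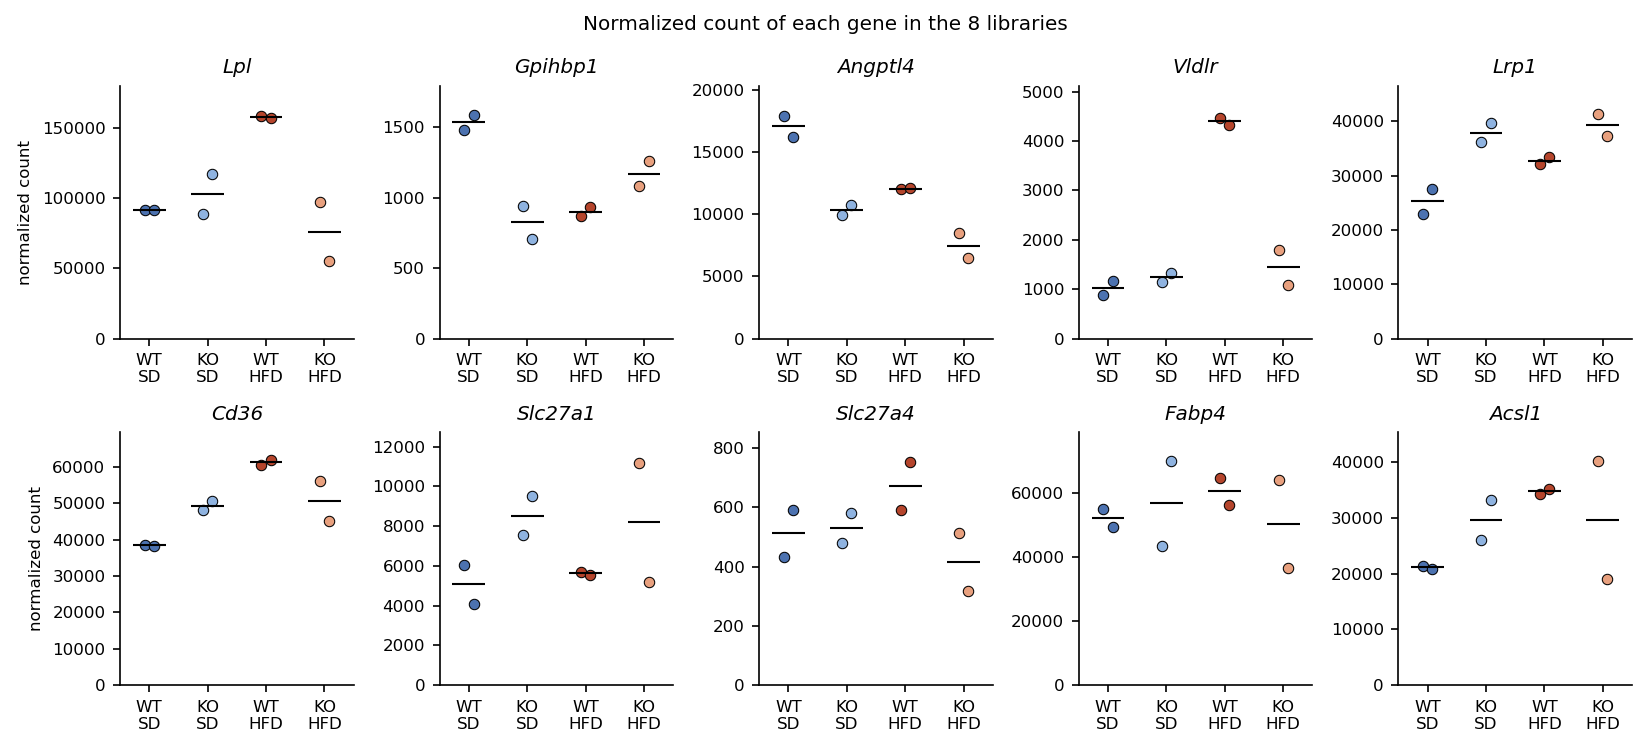
Normalized count (vertical axes, from 0) of each of the 10 genes in the 4 groups; points are single libraries and horizontal lines are group means of 2 libraries. WT on HFD stands above all other libraries for Vldlr (4470 and 4322) and Lpl (158090 and 157157), and the KO libraries lie below the WT libraries of the same diet for Angptl4.

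Vldlr encodes a receptor that captures triglyceride-rich lipoproteins in concert with LPL and is a known target of PPARγ in fat (chr19:27216484-27254231, plus strand). It was listed at 886 and 1166 normalized counts in WT on SD, 1150 and 1335 in KO on SD, 4470 and 4322 in WT on HFD and 1791 and 1087 in KO on HFD. HFD raised Vldlr in WT, and the libraries of KO on HFD overlapped those of both SD groups. HFD against SD gave a log2 fold change of 2.11 ± 0.22 (SE; adjusted p = 0.00014) in WT and 0.17 ± 0.22 (adjusted p = 0.76) in KO. KO against WT gave -1.65 ± 0.22 (adjusted p = 0.00012) on HFD and 0.29 ± 0.22 (adjusted p = 0.57) on SD, and the interaction was -1.94 ± 0.31 (adjusted p = 0.0038). Of the 12 calls on the 10 genes, those of Vldlr for the knockout on HFD, for the diet in WT and for the interaction were the 3 that held in every alternative run and without any single library. Over the scalings and models its difference on HFD ranged from -1.66 to -1.27, and without single libraries from -2.01 to -1.29.

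The sequence upstream of Vldlr is shown because this gene carries the largest change, beside those of Slc27a4, which was also lower in KO on HFD, and of Cd36, which was also higher on HFD in WT. They are the 250 bases before a RefSeq start on GRCm38.p6, written 5′ to 3′ on the strand of the gene. RefSeq windows were found for 6 of the 10 genes, 10 windows in all. Vldlr has 2 windows, window 1 at chr19:27216234-27216483, directly before the annotated gene, and window 2 at chr19:27216770-27217019 (both plus strand). The others are chr2:29802384-29802633 (plus strand) for Slc27a4 and chr5:17835897-17836146 (minus strand) for Cd36. Window 2 of Vldlr overlaps the first exon of the retained-intron transcript Vldlr-204, and that of Cd36 starts inside the longer annotated gene. Capitals mark matches, on either strand, to GGGCGG (Sp1), CCAAT (the CCAAT box) and AGGTCA (the hexamer bound by nuclear receptors, which the PPAR element repeats with 1 base in between).
Vldlr window 1: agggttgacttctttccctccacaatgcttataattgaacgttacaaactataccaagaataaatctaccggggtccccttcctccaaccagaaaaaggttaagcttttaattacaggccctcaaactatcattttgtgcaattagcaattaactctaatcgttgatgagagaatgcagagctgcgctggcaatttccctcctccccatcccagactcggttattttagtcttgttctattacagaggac
Vldlr window 2: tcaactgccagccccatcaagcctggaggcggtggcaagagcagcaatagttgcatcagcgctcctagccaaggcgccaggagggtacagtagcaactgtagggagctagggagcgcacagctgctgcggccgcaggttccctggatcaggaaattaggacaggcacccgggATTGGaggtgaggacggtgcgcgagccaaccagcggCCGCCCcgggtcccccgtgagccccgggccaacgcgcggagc
Slc27a4: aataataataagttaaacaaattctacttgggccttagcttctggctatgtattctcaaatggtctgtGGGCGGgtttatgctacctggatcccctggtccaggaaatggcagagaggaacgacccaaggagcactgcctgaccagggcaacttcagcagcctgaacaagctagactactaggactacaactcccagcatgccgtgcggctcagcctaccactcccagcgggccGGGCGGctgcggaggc
Cd36: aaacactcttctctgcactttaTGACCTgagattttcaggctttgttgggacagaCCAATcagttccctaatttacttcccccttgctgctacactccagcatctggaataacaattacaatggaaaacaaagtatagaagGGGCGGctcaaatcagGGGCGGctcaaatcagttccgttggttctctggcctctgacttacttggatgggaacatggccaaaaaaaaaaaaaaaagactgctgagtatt
GGGCGG was present in window 2 of Vldlr and in the windows of Slc27a4 and Cd36 but not in window 1 of Vldlr, against 32.7% of the 32851 windows of that length over all genes. CCAAT was present in window 2 of Vldlr and in that of Cd36, again not in window 1 of Vldlr, against 33.8% of windows, and AGGTCA upstream of Cd36, against 14%. The TEAD core GGAATG, found in 12.6% of all windows, matched none of these 4 on either strand. The PPAR element, found in 0.0335% of windows, did not match them, and no match was found to ACGTG, the core of hypoxia response elements, which 16.6% of windows hold. Among the other members GGAATG matched 1 window each of Acsl1 and Slc27a1. Such a match is a description of letters in a short window only. Where GGGCGG and CCAAT matched they did not overlap one another.

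Lrp1 encodes a large endocytic receptor for remnants that is also made by macrophages and fibroblasts (chr10:127538161-127621148, minus strand). It was listed at 22972 and 27624 normalized counts in WT on SD, 36124 and 39656 in KO on SD, 32132 and 33390 in WT on HFD and 41364 and 37370 in KO on HFD. The KO libraries lay above the WT libraries on either diet. Neither difference was called: KO against WT gave 0.59 ± 0.18 on SD (log2, SE; adjusted p = 0.098) and 0.26 ± 0.18 on HFD (adjusted p = 0.28). On HFD, equal library totals gave 0.65 and a call (adjusted p = 0.010). Quantile normalization gave calls on both diets, 0.74 on SD (adjusted p = 0.016) and 0.97 on HFD (adjusted p = 0.00066). Macrophage markers rose beside it, 10 of 11 on SD and 11 of 11 on HFD, against 3.21% and 17.1% of all genes higher. Of 11 fibroblast and progenitor markers 9 were higher on HFD, with sums of 22994 to 23566 in WT and 71974 to 81139 in KO. None of these was called on SD. As deposited, the difference of Lrp1 was larger on SD than on HFD. Median log2 fold changes on SD and HFD were 2.03 and 3.99 for macrophage markers, and 0.17 and 1.51 for fibroblast and progenitor markers. Their part in the level of Lrp1 was not tested. Unlike Vldlr, Lrp1 showed no called response to diet in WT (0.38 ± 0.18, adjusted p = 0.15).

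Cd36, the scavenger receptor and fatty acid translocase (chr5:17781690-17888801, minus strand), was listed at 38637 and 38237 normalized counts in WT on SD, 48091 and 50553 in KO on SD, 60546 and 61967 in WT on HFD and 56019 and 45203 in KO on HFD. The WT libraries on SD were lowest and those on HFD highest, with all KO libraries in between. HFD against SD in WT gave 0.67 ± 0.19 on the log2 scale (SE; adjusted p = 0.029), a call that held in 5 of 11 alternatives. The value fell to 0.26 (adjusted p = 0.30) at equal library totals and to 0.18 (adjusted p = 0.55) under quantile normalization. Without any single WT library the call was lost, although the value stayed between 0.66 and 0.69. In KO the difference was 0.03 ± 0.19 (adjusted p = 0.96). KO against WT gave 0.36 on SD and -0.28 on HFD, with 95% intervals of -0.06 to 0.78 and -0.70 to 0.13, neither called. Macrophages and endothelial cells also express Cd36, so its counts can come from more than the adipocyte.

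The fatty acid transport proteins SLC27A1 (FATP1) and SLC27A4 (FATP4) couple uptake to activation. Slc27a4 (chr2:29802634-29817522, plus strand) was listed at 433 and 592 normalized counts in WT on SD, 479 and 582 in KO on SD, 590 and 753 in WT on HFD and 514 and 316 in KO on HFD. The KO libraries on HFD lay below the WT libraries on HFD. The difference was -0.72 ± 0.25 (log2, SE; adjusted p = 0.043), close to the limit, and it was called in 3 of 11 alternatives and without 3 of 8 single libraries. Slc27a1 (chr8:71568882-71587302, plus strand) was listed at 6042 and 4102 in WT on SD, 7556 and 9506 in KO on SD, 5677 and 5554 in WT on HFD and 11201 and 5193 in KO on HFD. The KO libraries on SD were above both WT libraries, and on HFD 1 KO library was above and 1 below. Neither difference was called, at 0.77 ± 0.29 on SD (adjusted p = 0.19) and 0.44 ± 0.29 on HFD (adjusted p = 0.26). The second was called at equal totals (0.83, adjusted p = 0.026) and under quantile normalization (0.89, adjusted p = 0.023).

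Inside the cell, Fabp4 and Acsl1 were among the most variable genes of the set between libraries of KO. Fabp4, the adipocyte fatty acid binding protein (chr3:10204088-10208576, minus strand), was listed at 55168 and 49480 normalized counts in WT on SD, 43494 and 70216 in KO on SD, 64916 and 56520 in WT on HFD and 64080 and 36542 in KO on HFD. All groups overlapped except WT on SD and WT on HFD. Its log2 fold change of KO against WT was 0.08 on SD and -0.32 on HFD, with 95% intervals of -0.54 to 0.70 and -0.94 to 0.30. Acsl1 (chr8:46471037-46536051, plus strand) activates long-chain fatty acids for triglyceride synthesis. It was listed at 21361 and 20848 in WT on SD, 25951 and 33194 in KO on SD, 34349 and 35206 in WT on HFD and 40147 and 18991 in KO on HFD. Every library outside WT on SD was above that group, apart from the second KO library on HFD, which was below it. No comparison called Acsl1, and HFD against SD in WT gave 0.72 ± 0.28 (adjusted p = 0.086). Of its exon bases 9.91% are overlapped by the antisense gene Gm45244.

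The first and second KO library on HFD gave different pictures of these genes. Without the first library, 6 of the 10 genes were called lower on HFD, Fabp4 and Acsl1 joining Vldlr, Lpl, Angptl4 and Slc27a4, beside 3148 lower of 5837 called among all genes. Without the second, Vldlr alone was called lower and Slc27a1 was called higher (1.00, adjusted p = 0.0075), beside 3682 called among all genes. The second library held 93742 normalized counts on adipocyte markers against 183977 in the first. The part of the adipocyte share in these values was not tested.

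All 12 adipocyte markers were lower in KO on HFD (10 to 12 under other scalings), beside 15.1% of all genes. None was called on SD, beside 4.71% of all genes, and 10 had a negative interaction, beside 8.73%. Vldlr, Lpl and Cd36 were therefore also set against Plin1 of this list, the perilipin that coats the lipid droplet of adipocytes, within each library. Per 1000 counts of Plin1, Vldlr was 26.2 and 30.3 in WT on SD, 38.6 and 35.3 in KO on SD, 78.6 and 75.5 in WT on HFD and 75.8 and 87.4 in KO on HFD. On this scale HFD libraries of both genotypes were above all SD libraries, and KO and WT overlapped on HFD. Lpl per count of Plin1 was 2.69 and 2.38 in WT on SD, 2.97 and 3.08 in KO on SD, 2.78 and 2.75 in WT on HFD and 4.10 and 4.43 in KO on HFD. It was thus highest in the group where Lpl itself was lowest by its mean. Cd36 per count of Plin1 was 1.07 and 1.08 in WT on HFD and 2.37 and 3.64 in KO on HFD. Ratios to other markers of the list differed in direction. Pnpla2 was listed at 35078 and 34158 normalized counts in WT on HFD and 24800 and 13093 in KO on HFD. Per count of Pnpla2, Vldlr and Lpl were lower in KO than in WT on HFD. Plin4 was listed at 104094 and 104425 in WT on HFD and 35869 and 17077 in KO on HFD. Per count of Plin4, Vldlr and Lpl were higher in KO. Plin1 itself was lower in KO on HFD (log2 -1.73, adjusted p = 0.00031) and responds to some of the same regulators, so the ratio is a description and was not tested. The part of the adipocyte share in the fall of Vldlr and Lpl was not tested.

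**Figure D4:**
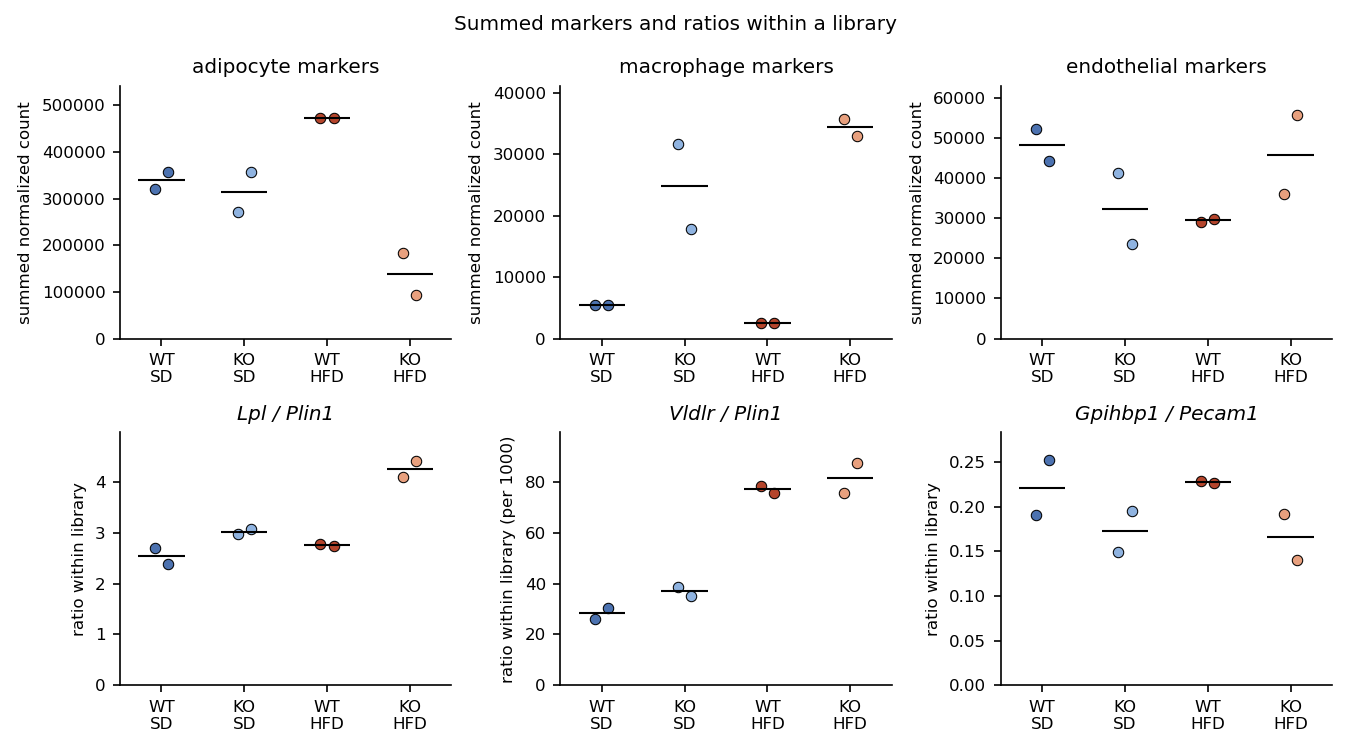
Upper row: summed normalized count (from 0) of 12 adipocyte, 11 macrophage and 12 endothelial markers; lower row: count of Lpl per count of Plin1, of Vldlr per 1000 of Plin1 and of Gpihbp1 per count of Pecam1, all within a library; points are single libraries and lines are means of 2. Adipocyte markers are lowest in KO on HFD (93742 to 183977), where Lpl per Plin1 is highest (4.10 and 4.43), and Vldlr per Plin1 separates the diets but not the genotypes on HFD.

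Other genes of the pathway were counted in 7 lists, each to be read against the shares of all genes called, 17.1% higher and 15.1% lower in KO on HFD and 3.21% higher and 1.50% lower on SD. Of 14 genes for the maturation, sorting and cleavage of LPL, 7 were lower and 2 (Furin and Sdc1) higher in KO on HFD, with a median log2 fold change of -0.58 beside 0.09 over all genes. On SD, Sdc1 and Sdc4 were higher and none was called lower, and the calls held in 8 (Sdc1) and 6 (Sdc4) of 11 alternatives. In WT 6 were higher on HFD, beside 8.74% of all genes, and at equal library totals 5 were higher and 2 lower. The largest change was that of Sorl1, a sorting receptor that directs LPL to endosomes. It was listed at 318 and 236 normalized counts in WT on SD, 264 and 282 in KO on SD, 2185 and 2190 in WT on HFD and 315 and 236 in KO on HFD. Like Vldlr, it was high in WT on HFD alone, and the KO libraries on HFD overlapped both SD groups. The log2 fold change was 2.99 ± 0.21 for the diet in WT (SE; adjusted p = 2.4e-05) and -3.00 ± 0.21 for the knockout on HFD (adjusted p = 7.6e-07), and both calls held in all alternatives run. Lrpap1, the chaperone of the LDL receptor family, went from 1835 and 1835 in WT on SD to 4974 and 4906 on HFD, and was listed at 1597 and 2055 in KO on SD and 1840 and 1191 in KO on HFD. Pcsk6, a proprotein convertase that can cleave LPL, was listed at 835 and 613, 589 and 736, 2035 and 2238, and 398 and 282 in WT and KO on SD and WT and KO on HFD. These 3 genes and Vldlr shared the same highest group and had called interactions, of -2.99, -1.72 and -2.55 for Sorl1, Lrpap1 and Pcsk6. Sort1, another sorting receptor, was lower in KO on HFD (-1.49, adjusted p = 0.00025), and so was Hspg2, the heparan sulphate proteoglycan perlecan (-1.38, adjusted p = 0.0015), although not under quantile normalization. Sdc1, a cell surface proteoglycan that binds lipoproteins, was higher in KO on HFD (2.30, adjusted p = 2.3e-05).

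Of 12 cofactors, inhibitors and related lipases, 7 were tested, and 2 (Lipg and Pltp) were higher in KO on HFD, a share of called genes near the 32.2% of all genes. Lipg, the endothelial lipase, was listed at 286 and 193 normalized counts in WT on SD, 236 and 119 in KO on SD, 75 and 59 in WT on HFD and 342 and 449 in KO on HFD. WT on HFD was lowest, the reverse of Vldlr, and KO against WT on HFD gave a log2 fold change of 2.54 ± 0.35 (SE; adjusted p = 0.00015). Pltp, the phospholipid transfer protein, was listed at 681 and 679, 2590 and 1780, 942 and 1034, and 5369 and 3643 in the same order of groups. Its KO libraries were above its WT libraries on either diet, by 1.66 ± 0.21 on SD (adjusted p = 0.00046) and 2.16 ± 0.21 on HFD (adjusted p = 9.9e-06). It was also the only gene of the list called in KO between diets (1.04, adjusted p = 0.039), in 7 of 11 alternatives. Apoe, which had the highest counts of the list, was not called on HFD (-0.51, adjusted p = 0.093). The LPL activator Apoc2 was below the level tested.

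Among 7 tested of 11 other fatty acid transport and binding proteins, Fabp5 and Fabp7 were higher and Dbi lower in KO on HFD. Fabp5, a binding protein shared with macrophages, was listed at 1347 and 1356 normalized counts in WT on SD, 2807 and 2340 in KO on SD, 2551 and 2562 in WT on HFD and 4702 and 3455 in KO on HFD. It was higher in KO on SD (0.92, adjusted p = 0.0065) and on HFD (0.66, adjusted p = 0.010), in contrast to Fabp4, for which neither was called. The HFD call of Fabp5 was lost with the WT libraries on HFD averaged. Dbi, the acyl-CoA binding protein, was lower in KO on HFD (-1.83, adjusted p = 9.9e-05). Of 6 tested of 8 other acyl-CoA synthetases, Acsl4 (-0.75, adjusted p = 0.0043) and Acsm5 (-2.59, adjusted p = 0.00014) were lower in KO on HFD, and Acsl5 was not called (-0.07, adjusted p = 0.80). At equal library totals Acsl4 was at -0.37 and no longer called.

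The LDL receptor family and its handling held genes called in both directions. Of 14 tested of 16, 6 were higher and 4 lower in KO on HFD, against 1 higher (Lrp12) on SD, beside 17.1% higher and 15.1% lower of all genes on HFD and 3.21% higher on SD. Dab2, an endocytic adaptor, rose most (2.82, adjusted p = 1.5e-06), from 331 and 385 normalized counts in WT on HFD to 2140 and 2994 in KO. Lrp4 (2.34, adjusted p = 0.0036), the reelin receptor Lrp8 (2.15, adjusted p = 0.00059) and Reln, the ligand of LRP8 and VLDLR (2.16, adjusted p = 0.0038) were also higher, with means over the libraries between 55.9 and 103 normalized counts. Lrp6 (-0.94, adjusted p = 0.00035) and Lrp5 (-1.06, adjusted p = 0.00020), co-receptors of Wnt signalling with the highest counts of the list, were lower. At equal library totals Lrp6 was at -0.56 and no longer called, and 7 were higher and 1 lower, so the split of this list depends on the scaling.

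Of 10 partners of CD36, 4 were lower and 2 higher in KO on HFD, with none called on SD, beside 17.1% higher and 15.1% lower of all genes on HFD and 4.71% called on SD. Cav1 (caveolin-1, -1.63, adjusted p = 0.00034) and Ptrf (cavin-1, -1.26, adjusted p = 0.00077), which build the caveolae in which CD36 resides, were lower, as was the CD36 ligand Thbs1 (-1.57, adjusted p = 5.0e-05), while the kinase Fyn was higher (1.31, adjusted p = 0.0022). Ptrf was not called under quantile normalization (-0.41). In WT, Cav1, Ptrf, Thbs1 and Lypla1 were higher on HFD, beside 8.74% of all genes higher and 9.22% lower, but at equal library totals none of the list was called higher and 3 were lower. Of 12 transcription factors that act on uptake genes, 6 were lower in KO on HFD (3 at equal library totals) and none was called higher, with none called on SD. Pparg was listed at 2956 and 3028 normalized counts in WT on SD, 2149 and 2899 in KO on SD, 4129 and 4020 in WT on HFD and 1819 and 1523 in KO on HFD. KO on HFD was the lowest group (-1.29 ± 0.17 against WT on HFD, adjusted p = 0.00010). Its partner Rxra (-1.62, adjusted p = 0.00014) and Cebpa (-1.24, adjusted p = 0.0031) were lower too, and Srebf1 was lower (-0.90, adjusted p = 0.0096), although in 7 of 11 alternatives only. Pparg also stands in the adipocyte marker list.

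**Figure D5:**
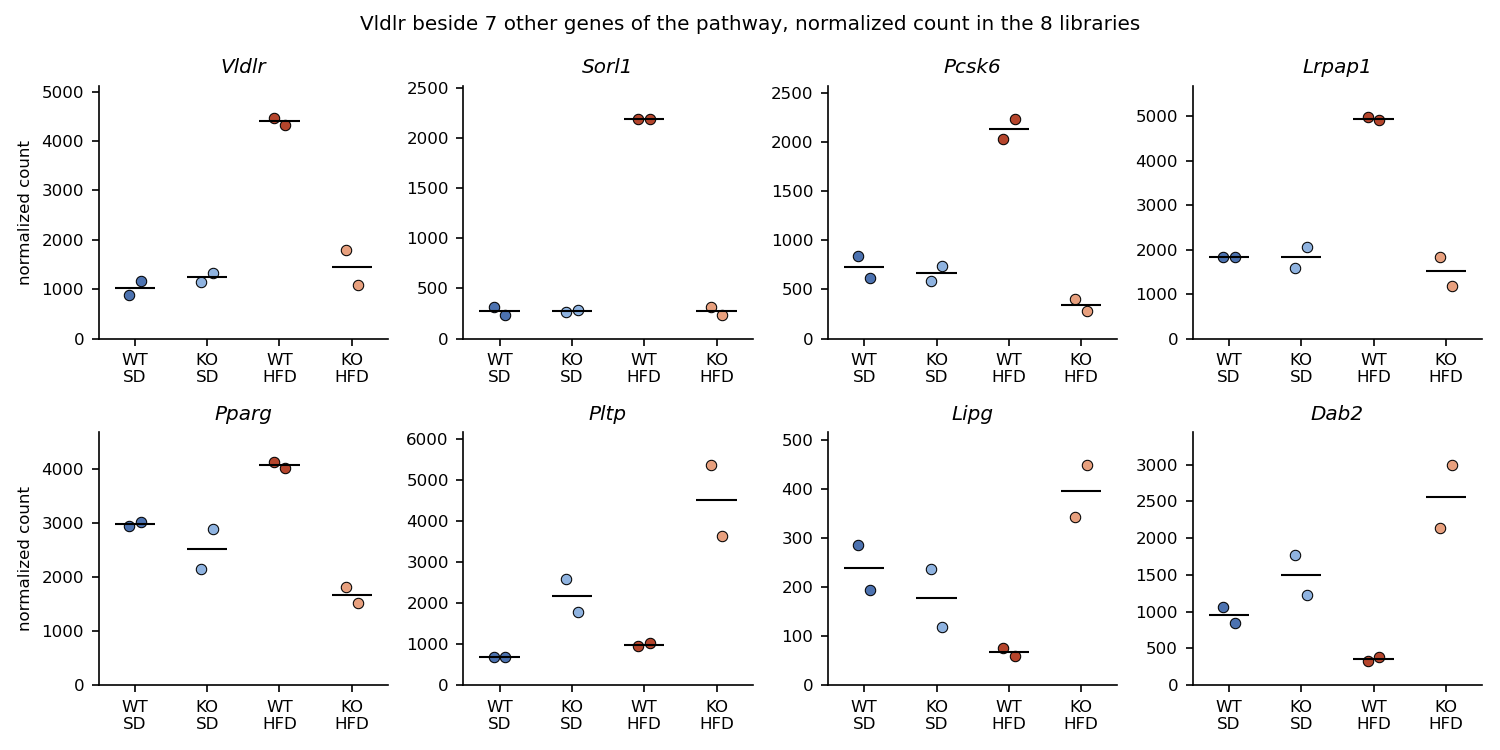
Normalized count (vertical axes, from 0) of Vldlr and 7 other genes of the pathway in the 4 groups; points are single libraries and lines are means of 2. Vldlr, Sorl1, Pcsk6 and Lrpap1 are high in WT on HFD alone, Lipg and Dab2 are lowest there, and Pltp is higher in KO on either diet (2590 and 1780 on SD, 5369 and 3643 on HFD).

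The genes most like each member over the 8 libraries were found by Pearson's r on log2(normalized count + 1) among genes whose mean was 50 or more. All points share library and scaling, so r is a description only. Vldlr was followed most closely by Npc2 (r = 0.995), Optn (0.995) and Unc119 (0.994), and Lpl by Mcur1 (0.995), Atl2 (0.992) and Smpd1 (0.992). Cd36 was nearest to Ergic1 (0.993), Smarcal1 (0.991) and Hephl1 (0.982), and Gpihbp1 to Gm4468 (0.979), Tspan13 (0.975) and Ogn (0.974). The nearest genes to Angptl4 were Fam126b (0.975), Slc25a25 (0.974) and Id3 (0.973), and to Lrp1 Ppp2r5c (0.992), Ap2m1 (0.978) and Rars (0.974). Acsl1 was followed by Aldoa (0.985), Mdh2 (0.984) and Atp5o (0.981), Fabp4 by Ndufv3 (0.980), Surf1 (0.968) and Tma7 (0.968), Slc27a1 by Dhrs7b (0.959), Ephx2 (0.941) and Cep170 (0.940), and Slc27a4 by Faf1 (0.988), Mtg1 (0.981) and Abcb8 (0.973). Among the members themselves, Lpl and Slc27a4 (r = 0.893) and Cd36 and Vldlr (0.869) were most alike, and Angptl4 and Lrp1 ran most opposite (-0.848).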

How the data were processed

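RNA-seq was performed on 8 libraries of isolated epididymal adipocytes, 2 in each group. According to the study's methods and the submitters' processing notes, the authors used Reaper for trimming, STAR 2.5.2b for alignment to GRCm38 and featureCounts 1.5.1 for counting on exons, leaving out reads over several genes or places, and tested with DESeq2 1.14.1. The deposited values are a score: gene counts divided by a size factor for each library and rounded by the authors, so count tests were not run here. Library totals were 14890264 to 20994246 normalized counts, and a read was worth an estimated 0.795 to 1.14 of them. Intervals cover the spread between libraries, not its sources.

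Genes with a mean of at least 5 (18800 of 30387) were tested with limma 3.58.1 in R 4.3.3 (lmFit, contrasts.fit, eBayes with trend) on log2(value + 1), with all 4 groups in a single fit (4 residual and 8.59 prior degrees of freedom) and Benjamini-Hochberg adjustment over all genes tested. Adjusted p-values come from this fit, or from its repeat under the alternative named beside them, and fold changes refer to log2(value + 1). The fit was tested on simulated data. A call required both an adjusted p no higher than 0.05 and a log2 fold change no smaller than 0.59, the limits of the study. Lengths came from GENCODE vM21, with which the coordinates of the table match except the end of Angptl4, and promoters from RefSeq (GRCm38.p6). Of the 30387 gene identifiers, 30259 were found in vM21. Whether the counting used the strand is not given in the sources used here.

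The 10 genes, the pathway lists, the marker lists and the ratios were chosen with earlier results of these data known. All 10 genes are named. Of each pathway list, up to 4 called genes with the largest change on HFD and a mean of at least 50, the 2 genes with the highest counts and those behind small counts are named, and for each member the 3 genes of highest r. Fabp1 and Dab1 are not analysed here, and Itgam, held in more than 1 row, was left out of the macrophage list. The alternatives covered pseudocounts, filters, scalings, quantile normalization, separate fits, robust eBayes, a replicate block, the WT libraries on HFD as 1 sample, and each library left out. Python 3.11.15 (numpy 2.4.6, pandas 2.3.3) wrote the tables, and matplotlib 3.10.9 drew the plots.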

Additional observations from a re-analysis of the deposited data

Results flagged for a closer look

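For 3 of the 10 genes the knockout acted differently on the 2 diets, by a limma test of the difference itself, beside 17.4% of all genes. For Vldlr the effect on HFD minus that on SD was -1.94 on the log2 scale (adjusted p = 0.0038). KO was lower than WT in both libraries on HFD, and the libraries overlapped on SD. For Lpl the difference of effects was -1.27 (adjusted p = 0.046), called in 3 of 10 alternatives and without 2 of the 8 single libraries. For Gpihbp1 it was 1.28 (adjusted p = 0.0079): both KO libraries were below both WT libraries on SD and above them on HFD. This call was lost with the WT libraries on HFD averaged (adjusted p = 0.055). A positive interaction was called for 8.69% of all genes and a negative one for 8.73%. Endothelial markers (9 of 12) had a positive one beside Gpihbp1, and 10 of 12 adipocyte markers a negative one beside Vldlr and Lpl. Their part in these differences was not tested.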

How the results depend on the processing

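Of 12 called differences among the 10 genes, 3, all of Vldlr, were called in every alternative and without any single library. With 2 libraries a group, single libraries decided most other calls. On HFD, 4 genes were called between KO and WT, 2 at a log2 limit of 1, 1 with the WT libraries on HFD averaged to 1 sample, and 1 to 6 without single libraries. On SD the 2 calls became 0 at a limit of 1 and when only the groups compared were fitted, 1 with no filter, 1 with the averaged libraries, and 0 to 3 without single libraries. For the diet in WT the 3 calls became 1 at a limit of 1, 5 with only the groups compared, 1 with the averaged libraries, and 1 to 5 without single libraries. In KO the count of 0 became 1 without the first KO library on SD (Gpihbp1) or without the first on HFD (Angptl4), and for the interaction the 3 calls became 1 with the averaged libraries and 2 to 7 without single libraries. Counts over all genes moved as well. At a limit of 1, 4301 of all genes were called on HFD, 653 on SD and 1988 for the diet in WT, in place of 6053, 886 and 3377. Averaging leaves fewer samples, and the interaction could not be fitted on only the groups compared. A lone library left in a group was assumed to vary like the others.

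Small differences that were not called as deposited changed sign, 22 values under other scalings and 24 without a single library, 0 of these 46 past both limits. KO against WT on HFD at equal totals gave 0.10 for Cd36, 0.062 for Fabp4 and 0.053 for Acsl1, and 0.51 (adjusted p = 0.048 in limma), 0.38 and 0.47 under quantile normalization. HFD against SD in WT at equal totals gave -0.20 for Fabp4, -0.24 for Slc27a1, -0.017 for Slc27a4 and -0.035 for Lrp1, and under quantile normalization -0.38 for Fabp4, -0.12 for Slc27a1 and -0.092 for Lrp1. In KO quantile normalization gave 0.12 for Lpl, 0.0060 for Fabp4 and 0.26 for Acsl1. The interaction at equal totals was 0.024 for Fabp4, 0.10 for Slc27a1 and 0.11 for Lrp1, and 0.38, 0.059 and 0.23 under quantile normalization. The cause was not tested.

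Without single libraries the sign changed for KO against WT on HFD in Fabp4 (-0.73 to 0.081), Slc27a1 (-0.11 to 1.00) and Acsl1 (-0.87 to 0.21), and on SD in Lpl (-0.042 to 0.355), Fabp4 (-0.26 to 0.43) and Slc27a4 (-0.16 to 0.29). For the diet it changed in WT in Slc27a1 (-0.11 to 0.45), and in KO in Cd36 (-0.13 to 0.18), Fabp4 (-0.60 to 0.21), Slc27a1 (-0.71 to 0.40), Acsl1 (-0.63 to 0.45), Vldlr (-0.19 to 0.53) and Lrp1 (-0.018 to 0.13). The interaction ranged from -0.18 to 0.21 for Angptl4, -0.81 to 0.00024 for Fabp4 and -0.88 to 0.23 for Slc27a1.

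The labels give every group repeats 1 and 2 without saying that a number is shared. Deviations of same-numbered libraries correlated between -0.30 (KO on SD and on HFD) and 0.11 over 12093 genes, so the numbers were not taken to pair the samples. With the replicate block, 3, 1, 2, 0 and 2 of the 10 genes were called in the order above, and of all genes 5706, 720, 2935, 112 and 2568. Numbers crossed in KO, chosen after seeing the data, gave 700 calls between diets in KO in place of 202, and 0 of the 10 genes. Among all genes, counts moved as follows: with the WT libraries on HFD averaged, 3445, 648, 539, 28 and 517 in place of 6053, 886, 3377, 202 and 3274, with no filter 438 on SD, 1701 in WT, 3 in KO and 721 for the interaction, and with only the groups compared 461 on SD and 0 in KO. At equal totals 77.2% of calls on HFD were higher in place of 53.1%, and 80.8% of interaction calls in place of 49.9%. The number of libraries limits precision for these abundant genes; none of the 10 was near the limit of 3 reads that a value of 0 allows.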
